A study of Homo sapiens with 12 samples.

Results

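The hnRNP and SR splicing factors are 2 families of RNA-binding proteins, and their genes were followed here through NRF2 knockdown in 3 lung cancer cell lines. All protein-coding genes whose symbol starts with HNRNP were taken except HNRNPA1, together with the SRSF genes, TRA2A, TRA2B, PTBP1 to PTBP3, SRRM1, SRRM2, U2AF1 and U2AF2. The rule gave 43 of the 57815 genes in the expression files, 23 of them HNRNP genes and 20 others. SRSF8 had no matching identifier and was not analysed here. RNA was sequenced from 12 libraries of A549 and H2023 (lung adenocarcinoma) and H460 (large cell carcinoma), which all carry a KEAP1 mutation. KEAP1 normally marks the transcription factor NRF2 for degradation. In each line 2 libraries were made from cells given a control siRNA, 1 from cells given NRF2 siRNA 28 and 1 from cells given NRF2 siRNA 30, all collected after 48 h. The controls were a commercial universal negative control or a scrambled siRNA, and the sources do not say which library received which. A549 cells grew in high glucose medium and their RNA was freed of ribosomal RNA, whereas H2023 and H460 cells grew in low glucose medium and polyA RNA was selected, so what sets A549 apart from the others cannot be told apart from its medium and RNA preparation. The methods of the study call the control libraries biological duplicates and take both NRF2 siRNAs as duplicates of the knockdown, and each p-value measures the spread between these libraries. In the averages over the 3 lines, that spread also holds differences of the siRNA effect between lines. A member that fell strongly in 1 line alone can therefore miss the threshold there.

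Before an intron is removed, its splice sites must be recognised. The U2AF proteins bind the end of the intron and help the U2 snRNP to dock, SR proteins bind exonic enhancers through RNA-recognition motifs and recruit the splicing machinery through arginine-serine domains, and hnRNP proteins coat nascent RNA and often silence nearby splice sites. Many of these genes limit their own mRNA by splicing in a poison exon that exposes the transcript to nonsense-mediated decay, and the gene-level values used here do not separate such isoforms.

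Expression is given in FPKM, fragments scaled to transcript length and to the size of the library, so a value is a share of the library, and fewer cells and less RNA per cell cannot be told apart. Depth is unknown, since FPKM keeps no read total. Between 12732 and 13909 genes reached 1 FPKM per library, and in every line both NRF2 siRNA libraries held more such genes than both controls. In H460 they numbered 12732 and 12760 in the controls, 13428 with siRNA 28 and 13430 with siRNA 30. NFE2L2, which encodes NRF2, lay between 30.9 and 144 FPKM in the 6 control libraries and between 5.31 and 12.2 FPKM in the 6 NRF2 siRNA libraries, with no overlap in any line. The epithelial markers KRT7, KRT8, KRT18, KRT19, EPCAM and CDH1 summed to 1154 FPKM or more in every library. In H460 nearly all of that sum was keratins, since EPCAM lay between 0.222 and 1.19 FPKM and CDH1 between 0.149 and 1.17 FPKM. Of 7 markers of leukocytes, endothelium and fibroblasts found in the files, between 2 and 4 reached 1 FPKM in a group, their sum ranged from 16.4 to 61.9 FPKM and was mostly CD68, and the endothelial marker VWF stayed below 1 FPKM everywhere. The mitochondrial share of the FPKM sum ran from 0.892% to 1.56% among A549 libraries, from 11.97% to 22.8% among H2023 libraries and from 8.56% to 26.0% among H460 libraries.

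NRF2 binds antioxidant response elements, so the promoters of the members were searched for the core of that element, TGACNNNGC, on both strands. The windows were RefSeq promoters of 300 bases, running from 250 bases before the transcription start to 50 after it, on GRCh38.p14. They were found for 40 of the 43 genes, with no entry for HNRNPA1L3, SRSF2 and TRA2A. The core occurred in 7 of 56 member promoters, or 12.5%, against 13.3% of all 35116 promoters. A match is a run of letters and not a bound site. The matches lay in HNRNPA2B1 (chr7:26200796-26200824, minus strand), HNRNPAB (chr5:178204515-178204543, plus strand), HNRNPF (chr10:43408894-43408922, minus strand), HNRNPK (chr9:83980311-83980339, minus strand), SRSF1 (chr17:58007378-58007406, minus strand), SRSF5 (chr14:69766975-69767003, plus strand) and TRA2B, which held 2 (chr3:185938019-185938047 and chr3:185938138-185938166, minus strand). They are shown because they are the only places in these windows where the searched letters, TGACNNNGC, occur, and no other form of the element was searched. Each is written 5′ to 3′ on the strand of the gene with the core, or its reverse complement, in capitals.
HNRNPA2B1: cgcgacggccTGACGTAGCggaagacgcg
HNRNPAB: ccacgagtcgGCATTGTCAggcggcggca
HNRNPF: gcagcgcgccTGACCCCGCccctcgtagg
HNRNPK: tcgccttgatTGACGTGGCctcgggccaa
SRSF1: gtggggagggTGACGTCGCgcgtgcgtgc
SRSF5: tcggtcactcGCAGTGTCAgagaggccca
TRA2B, nearer the start: gctaaggagcGCCGCGTCAcatccggtag
TRA2B, farther from the start: cctgcgagggGCGGGGTCAcgtcacttcc

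The members spanned a wide range of levels. Averaged over the 12 libraries, HNRNPA2B1, an hnRNP of the A/B group, was the highest at 1018 FPKM, followed by HNRNPC, which binds uridine tracts, at 739 FPKM and HNRNPH1, which binds runs of G, at 438 FPKM. The lowest were the SR protein gene SRSF12 at 0.577 FPKM, the HNRNPC-like gene HNRNPCL1 at 0.843 FPKM and HNRNPA1L2 at 2.51 FPKM. SRSF12 and HNRNPCL1 did not reach 1 FPKM in 2 libraries of every line, which left 41 members in the fits of all 12 libraries. HNRNPCL1, HNRNPA1L2 and HNRNPA1L3 are relatives of HNRNPC or HNRNPA1, so reads may be shared with the parent gene and their values are uncertain. HNRNPUL2-BSCL2 (chr11:62457747-62494856, GRCh37) is a readthrough gene that overlaps HNRNPUL2 (chr11:62480102-62494929), and reads of the pair cannot be fully told apart.

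The 43 members together took 1.77% and 1.55% of the FPKM sum in the H460 control libraries, 1.01% with siRNA 28 and 0.873% with siRNA 30. In H2023 their share was 1.12% and 1.10% with control siRNA, 1.06% with siRNA 28 and 1.17% with siRNA 30. In A549 it was 0.478% and 0.472% with control siRNA, 0.344% with siRNA 28 and 0.475% with siRNA 30. The A549 siRNA 28 library also had the largest FPKM sum of that line, 1159274 against 925611 to 999482. The members' own sum in it was 3986 FPKM, against 4779 and 4372 FPKM in the controls. By share, both NRF2 siRNA libraries thus lay below both controls in H460 only, and siRNA 28 alone lay below them in A549 and H2023. In H460 the mitochondrial share moved the other way, from 8.56% and 13.1% in the controls to 20.8% with siRNA 28 and 26.0% with siRNA 30. Of the non-mitochondrial FPKM sum, the members still took 1.94% and 1.79% in the H460 controls, 1.27% with siRNA 28 and 1.18% with siRNA 30. On that scale siRNA 28 no longer lay below both controls in H2023, where the members took 1.276% and 1.35% with control siRNA, 1.28% with siRNA 28 and 1.52% with siRNA 30. The plot of shares by library shows both quantities.

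**Figure D1:**
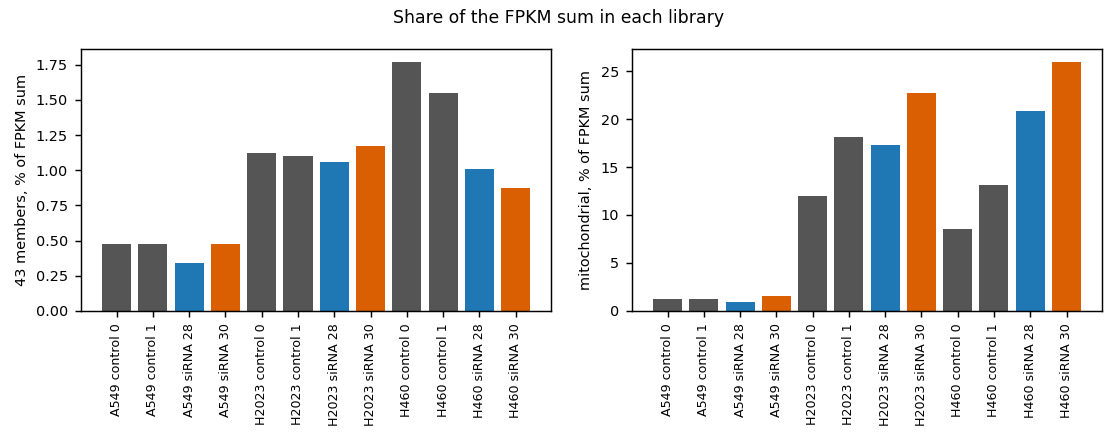
Percentage of the FPKM sum taken by the 43 members (left) and by mitochondrial transcripts (right) in each of the 12 libraries, with control libraries in grey, siRNA 28 in blue and siRNA 30 in orange. In H460 the members go from 1.77% and 1.55% to 1.01% and 0.873%, and mitochondrial transcripts go from 8.56% and 13.1% to 20.8% and 26.0%.

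The most members passed the test in H460. With siRNA 28 against its 2 control libraries, 29 of 41 members fell at an adjusted p under 0.05 in limma on log2(FPKM + 1), where 19.9% of all 11571 tested genes did, and 1 member rose, where 16.8% of all genes did. With siRNA 30 against the same controls, 22 of 41 members fell, where 22.9% of all genes did, and 0 rose, also at an unadjusted p under 0.05, where 18.7% of all genes rose. The median log2 fold change of the members was -0.77 with siRNA 28 and -0.64 with siRNA 30, against -0.05 and -0.04 over all genes tested and -0.13 with each siRNA over the 7350 genes that averaged at least 10 FPKM. Each siRNA is a single library here, with no spread of its own. It was assumed to vary like the control libraries, and the spread came from the control pairs of all 3 lines, A549 with its other RNA preparation included. The controls are shared by both comparisons. With mitochondrial transcripts left out, the median of all genes moved to 0.11 and 0.21, the members' medians were -0.62 and -0.38, and 24 and 16 members fell, where 14.2% and 14.9% of all genes did, with 1 and 2 members higher, where 21.4% and 27.5% of all genes were. Relative to the median of all genes, the members were then lower by a log2 difference of -0.73 with siRNA 28 and -0.59 with siRNA 30, and of -0.73 and -0.61 before.

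Taking both NRF2 siRNA libraries of H460 as a group against both controls, 10 of 42 members fell, where 6.86% of 13446 genes tested in that line did, and 0 rose, where 7.12% did; 25 members were lower and 0 higher at an unadjusted p under 0.05. In terms of order alone, both NRF2 siRNA libraries lay below both controls for 35 of 41 members, against 33.7% of all genes, and above both for PTBP2 and SRSF5 (2 of 41), against 29.4%. SRSF6, SRRM2, HNRNPH2 and HNRNPA1L2 overlapped. The summed epithelial markers also differed in H460, at 1154 and 1346 FPKM in the controls and 1763 and 2633 FPKM with NRF2 siRNA. In H2023, where few members passed the test, they were between 2810 and 3386 FPKM in the controls and between 6012 and 6336 FPKM with NRF2 siRNA, and in A549 the groups overlapped. The sum in H460 was led by KRT8, and KRT19 lay on either side of its controls, at 288 and 364 FPKM with control siRNA, 269 FPKM with siRNA 28 and 461 FPKM with siRNA 30. Markers of other cell types summed to between 42.4 and 45.9 FPKM in the H460 controls and between 28.2 and 45.1 FPKM with NRF2 siRNA. Among them the macrophage marker CD68 was at 36.6 and 39.2 FPKM in the controls, 16.5 FPKM with siRNA 28 and 29.2 FPKM with siRNA 30, and fell with siRNA 28 (adjusted p 0.0018 in limma). The fibroblast marker COL1A1 was at 1.81 and 2.06 FPKM in the controls, 5.94 FPKM with siRNA 28 and 5.81 FPKM with siRNA 30, and rose with both siRNAs as a group (adjusted p 0.0329 in limma), while PTPRC, CD3E and VWF stayed near 0. CD68 went the other way in A549, at 14.0 and 15.6 FPKM in the controls, 26.6 FPKM with siRNA 28 and 30.7 FPKM with siRNA 30. In H2023 it was at 48.2 and 43.05 FPKM, 57.7 FPKM and 45.7 FPKM in the same order. The part of these markers in the members' fall in H460 was not tested. The count of 10 became 0 without either control library, 16 without the siRNA 30 library, 0 with no filter on low values and 4 with mitochondrial transcripts left out. It was 24 when the spread was estimated from all 12 libraries.

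Among SR proteins in H460, SRSF7 (chr2:38970741-38978636, GRCh37), a shuttling factor that also takes part in mRNA export, moved most. It was at 158 and 168.5 FPKM with control siRNA, 67.7 FPKM with siRNA 28 and 59.3 FPKM with siRNA 30, which is -1.35 on the log2 scale (SE 0.21, adjusted p 0.0196). The SR protein genes SRSF1, SRSF2, SRSF3 and SRSF4 fell with each siRNA taken singly, with log2 fold changes of -0.89, -0.90, -0.77 and -1.10 for siRNA 28 and -0.69, -0.85, -0.73 and -0.64 for siRNA 30. SRSF1, which binds purine-rich enhancers, had 169 and 209 FPKM in the controls, 101 FPKM with siRNA 28 and 116 FPKM with siRNA 30. SRSF4 had 70.2 and 52.8 FPKM in the controls, 27.9 FPKM with siRNA 28 and 38.6 FPKM with siRNA 30. For all of these the NRF2 siRNA libraries lay below both controls. In contrast, SRSF5 was at 103 and 133 FPKM with control siRNA, 139.8 FPKM with siRNA 28 and 147 FPKM with siRNA 30, above both controls but past the threshold in neither comparison. SRSF6 was at 71.3 and 66.4 FPKM in the controls, 60.6 FPKM with siRNA 28 and 78.2 FPKM with siRNA 30, on either side of them.

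TRA2B, an SR-related activator of exons with GA-rich enhancers, was at 332 and 339 FPKM in the H460 controls, 182.5 FPKM with siRNA 28 and 173 FPKM with siRNA 30, and fell by 0.91 on the log2 scale (SE 0.21, adjusted p 0.0408). Its paralog TRA2A was at 136 and 122 FPKM in the controls, 88.6 FPKM with siRNA 28 and 96.8 FPKM with siRNA 30, and fell with siRNA 28 alone (log2 fold change -0.53, adjusted p 0.0378). SRRM1 and SRRM2, scaffold proteins of nuclear speckles, passed the threshold with neither siRNA. SRRM2 had 239 and 232 FPKM in the controls, 291 FPKM with siRNA 28 and 209 FPKM with siRNA 30, so the 2 siRNAs lay on opposite sides of the controls.

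Both U2AF subunits fell in H460. U2AF1, which reads the AG at the end of the intron, was at 109 and 92.8 FPKM in the controls, 45.0 FPKM with siRNA 28 and 39.8 FPKM with siRNA 30 (log2 fold change -1.23, SE 0.22, adjusted p 0.0240). U2AF2, which binds the polypyrimidine tract, was at 233 and 236.5 FPKM in the controls, 141 FPKM with siRNA 28 and 101 FPKM with siRNA 30 (log2 fold change -0.97, SE 0.25, adjusted p 0.0488). The U2AF1 libraries fell to 44.7% and 39.5% of the control mean and the U2AF2 libraries to 60.1% and 43.1%.

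Of the PTB proteins, which repress exons flanked by pyrimidine tracts, PTBP1 was at 473.5 and 451 FPKM in the H460 controls, 331 FPKM with siRNA 28 and 306 FPKM with siRNA 30, and fell with siRNA 30 (log2 fold change -0.59, adjusted p 0.0223). PTBP3 had 20.6 and 23.8 FPKM in the controls, 9.67 FPKM with siRNA 28 and 14.8 FPKM with siRNA 30, and fell with siRNA 28 (log2 fold change -1.12, adjusted p 0.0038). PTBP2, best known from neurons, was the member that rose with siRNA 28 in H460 (log2 fold change 0.76, adjusted p 0.0220).

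Among the hnRNP genes of the A/B and D group in H460, 7 of 8 fell with each siRNA, where 19.9% of all genes did with siRNA 28 and 22.9% with siRNA 30. HNRNPD (chr4:83273651-83295656, GRCh37), also known as AUF1 and a binder of AU-rich mRNAs, was at 684 and 523 FPKM in the controls, 269 FPKM with siRNA 28 and 234 FPKM with siRNA 30 (log2 fold change -1.25, SE 0.25, adjusted p 0.0313). HNRNPAB was at 236 and 259 FPKM in the controls, 108 FPKM with siRNA 28 and 118 FPKM with siRNA 30 (log2 fold change -1.13, SE 0.21, adjusted p 0.0272). HNRNPA2B1, the most abundant member, was at 2769 and 1808 FPKM in the controls, 1102 FPKM with siRNA 28 and 1183 FPKM with siRNA 30, and fell with each siRNA taken singly (adjusted p 0.0221 and 0.0288). The 2 controls of HNRNPA2B1 and HNRNPD stood far apart, yet both siRNA libraries lay below the lower of them.

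In the other hnRNP groups of H460, the members that passed the test with both siRNAs as a group were HNRNPL, HNRNPU, HNRNPUL1 and, in the D group, HNRNPDL. HNRNPL, which binds CA repeats, was at 299 and 236 FPKM in the controls, 126 FPKM with siRNA 28 and 128.5 FPKM with siRNA 30 (log2 fold change -1.06, adjusted p 0.0347). HNRNPU, a large nuclear scaffold protein, was at 578 and 553 FPKM in the controls, 260.3 FPKM with siRNA 28 and 303 FPKM with siRNA 30 (log2 fold change -1.01, adjusted p 0.0397). HNRNPDL and HNRNPUL1 had log2 fold changes of -0.88 and -0.87 (adjusted p 0.0453 and 0.0480). HNRNPC was at 1381 and 1096 FPKM in the controls, 652 FPKM with siRNA 28 and 722 FPKM with siRNA 30, and fell with each siRNA taken singly. HNRNPH2 and HNRNPLL passed the threshold with neither siRNA: HNRNPH2, a paralog of HNRNPH1 on the X chromosome, was at 93.3 and 88.7 FPKM in the controls, 98.0 FPKM with siRNA 28 and 88.7 FPKM with siRNA 30, and HNRNPLL, a paralog of HNRNPL, was at 15.9 and 14.4 FPKM, 14.1 FPKM and 12.98 FPKM, below both controls.

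**Figure D2:**
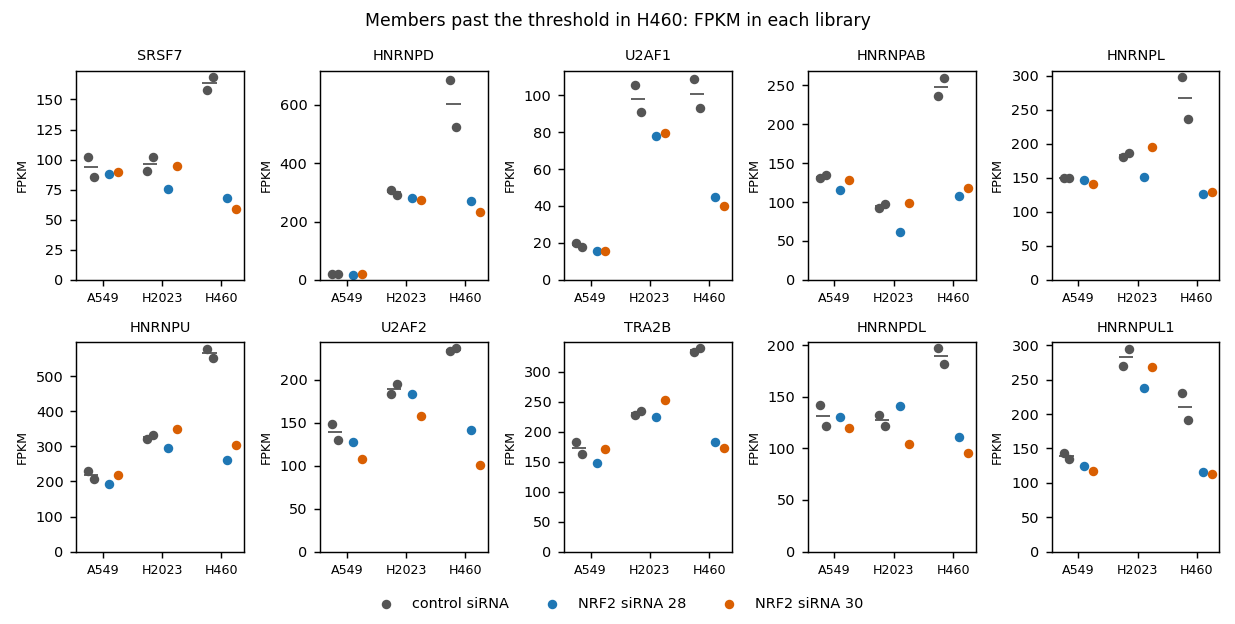
FPKM in each of the 12 libraries for the 10 members past the threshold with both siRNAs in H460, on linear axes from 0 (grey, control siRNA with a bar at the mean; blue, siRNA 28; orange, siRNA 30). In H460 both coloured points lie below both grey points in every panel, with SRSF7 at 67.7 and 59.3 FPKM against 158 and 168.5 FPKM.

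In A549 and H2023 few members passed the test. In A549, siRNA 28 gave 0 lower members and 0 higher, where 0.830% and 0.372% of all genes passed in these directions, with 2 lower and 1 higher at an unadjusted p under 0.05. With siRNA 30, 1 was lower, HNRNPA1L3, and 0 were higher (1 at an unadjusted p under 0.05), where 1.05% and 0.0778% of all genes passed. These are again single libraries tested with the spread of the control pairs of all 3 lines. In H2023, siRNA 28 lowered 2 members, HNRNPAB and HNRNPUL2-BSCL2 (adjusted p 0.0472 and 0.0463), where 4.55% of all genes fell, and raised 0 (1 at an unadjusted p under 0.05), where 4.80% rose. With siRNA 30, HNRNPA1L3 was again the 1 lower member, where 5.57% of all genes fell, and 0 were higher (3 at an unadjusted p under 0.05), where 4.65% rose. Taking both siRNAs as a group in limma, 0 members were lower or higher in A549, where 0.554% and 0.122% of genes passed, and 0 in H2023, where 0.583% and 0.327% passed; at an unadjusted p under 0.05 this left 1 lower member in A549. HNRNPAB and HNRNPUL2-BSCL2 had an adjusted p of 0.633 and 0.861 in H2023 in that test.

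The members' median log2 fold change in A549 was -0.17 with siRNA 28 and -0.07 with siRNA 30, and in H2023 it was -0.15 and -0.03. The last of these turned to 0.11 when mitochondrial transcripts were left out, where the median of all genes was 0.14. By order alone, both NRF2 siRNA libraries lay below both controls for 17 of 41 members in A549, against 21.8% of all genes, and above both for 3, against 24.1%. In H2023 they lay below for 10, against 23.3%, and above for 3, against 26.2%. The 7 members that lay below both controls in all 3 lines were PTBP1, SRSF2, SRSF3, U2AF1, HNRNPD, HNRNPC and HNRNPUL1, and 7.20% of all genes did so. U2AF1, for example, had 19.7 and 17.9 FPKM in the A549 controls and 15.4 FPKM with each siRNA, and 105.5 and 90.7 FPKM in the H2023 controls, 78.1 FPKM with siRNA 28 and 79.5 FPKM with siRNA 30. PTBP1 went from 221 and 194 FPKM in the A549 controls to 168 FPKM with siRNA 28 and 189.6 FPKM with siRNA 30. Orders that were opposite between lines were seen for 4 of 41 members, against 11.1% of all genes.

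**Figure D3:**
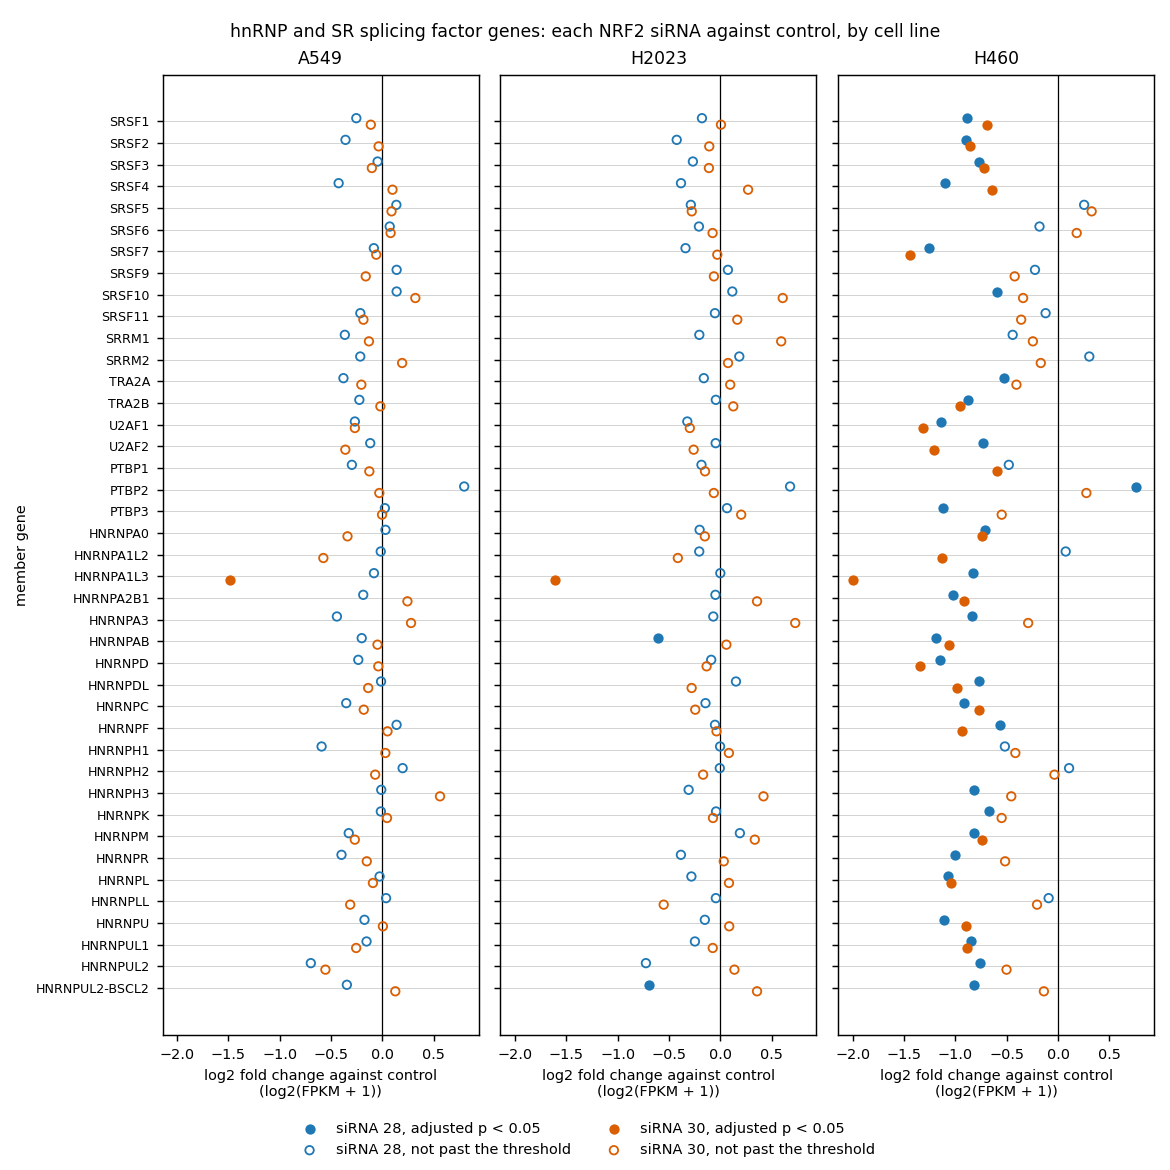
Log2 fold change against the control libraries, on the log2(FPKM + 1) scale, for the 41 tested members in A549, H2023 and H460, with siRNA 28 in blue and siRNA 30 in orange. Filled points passed an adjusted p of 0.05: 29 lower and 1 higher with siRNA 28 and 22 lower with siRNA 30 in H460, against at most 2 in each comparison of the other lines.

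The difference between lines was tested directly. In an F test of the NRF2 siRNA effect over the 3 lines, 2 of 41 members passed, where 2.51% of all genes did: SRSF7 (adjusted p 0.0337) and HNRNPD (adjusted p 0.0440). SRSF7 was at 102 and 85.5 FPKM in the A549 controls, 88.1 FPKM with siRNA 28 and 89.5 FPKM with siRNA 30, and at 90.8 and 102 FPKM in the H2023 controls, 75.9 FPKM with siRNA 28 and 94.4 FPKM with siRNA 30. HNRNPD had 309.5 and 290.1 FPKM in the H2023 controls, 282 FPKM with siRNA 28 and 273 FPKM with siRNA 30. In H2023 the siRNA 30 library of SRSF7 thus lay between its controls, whereas for HNRNPD both siRNA libraries lay below them. The F test count ranged from 0 to 6 as single libraries were left out. A contrast of H460 with the mean of the other lines, added after the values were seen, called 10 members more negative in H460, where 4.90% of all genes were, and 0 more positive, where 3.50% were. They were SRSF7, HNRNPD, U2AF1, HNRNPU, TRA2B, HNRNPL, HNRNPF, HNRNPAB, HNRNPUL1 and HNRNPDL, and differed by between -1.22 (SRSF7, SE 0.20) and -0.69 (HNRNPUL1, SE 0.18) on the log2 scale. That count was 0 without the first control library of H460, 2 or 3 without 1 of the controls of A549 or H2023, 3 and 5 without the siRNA 30 and siRNA 28 libraries of A549, 3 with mitochondrial transcripts left out and 6 with median-ratio scaling.

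Averaged over the 3 lines, siRNA 28 lowered 6 of 41 members, where 7.50% of all genes fell, and raised 1, where 9.39% rose. The rise belonged to PTBP2 (chr1:97187221-97289294, GRCh37). PTBP2 was at 8.09 and 7.23 FPKM in the A549 controls, 14.0 FPKM with siRNA 28 and 7.48 FPKM with siRNA 30. In H2023 the same libraries gave 5.04 and 5.22 FPKM, 8.83 FPKM and 4.87 FPKM. In H460 they gave 4.29 and 3.47 FPKM, 7.23 FPKM and 4.89 FPKM. The siRNA 28 library was therefore 172% to 186% of the control mean in every line, whereas siRNA 30 gave 94.96% to 126%. On the log2(FPKM + 1) scale, which shrinks changes of low genes, the average rise with siRNA 28 was 0.75 (SE 0.13, adjusted p 0.0036 in limma).

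The 6 members that fell with siRNA 28 were HNRNPUL2 (log2 fold change -0.73, SE 0.15, adjusted p 0.0104), HNRNPUL2-BSCL2 (-0.62, SE 0.14, adjusted p 0.0121), HNRNPR (-0.59, SE 0.15, adjusted p 0.0202), SRSF4 (-0.64, SE 0.18, adjusted p 0.0323), SRSF2 (-0.56, SE 0.16, adjusted p 0.0383) and HNRNPAB (-0.67, SE 0.20, adjusted p 0.0402). HNRNPUL2 was at 6.31 and 5.23 FPKM in the A549 controls, 3.17 FPKM with siRNA 28 and 3.60 FPKM with siRNA 30. In H2023 these were 11.3 and 13.2 FPKM, 6.996 FPKM and 13.5 FPKM. In H460 these were 9.04 and 9.77 FPKM, 5.14 FPKM and 6.34 FPKM, so siRNA 28 lay at 54.7% to 57.2% of the control mean in all lines. HNRNPR was at 116 and 95.4 FPKM in the A549 controls, 79.6 FPKM with siRNA 28 and 94.6 FPKM with siRNA 30, and at 154 and 151 FPKM, 117 FPKM and 156 FPKM in H2023. SRSF2 was at 232.5 and 231 FPKM in the A549 controls, 180.4 FPKM with siRNA 28 and 226 FPKM with siRNA 30. With siRNA 28 all 6 lay below both controls in every line. The count of 6 was 0 without the siRNA 28 library of H2023 or of H460, 3 without the second control of H2023 or of H460, 10 without the siRNA 30 library of H460, 1 with A549 left out and 2 with no filter on low values.

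Averaged over the 3 lines in limma, siRNA 30 lowered 4 of 41 members (9.76%), near the 10.2% of all genes that fell. It raised 0 (also 0 at an unadjusted p under 0.05), where 8.50% of all genes rose. The 4 lower members were HNRNPA1L3, HNRNPA1L2, U2AF2 (log2 fold change -0.61, SE 0.17, adjusted p 0.0307) and U2AF1 (-0.63, SE 0.19, adjusted p 0.0439). U2AF2 was at 149 and 129 FPKM in the A549 controls, 128 FPKM with siRNA 28 and 108 FPKM with siRNA 30, and at 183 and 195 FPKM, 183 FPKM and 158 FPKM in H2023, with siRNA 30 the lowest library in each line. The count of 4 was 2 without either control of H460, 1 without the siRNA 30 library of H460, 1 with A549 left out and 1 with no filter on low values. Over all genes, 54.6% of the calls of this comparison were lower, and 37.5% with mitochondrial transcripts left out.

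HNRNPA1L3 was at 6.95 and 8.18 FPKM in the A549 controls, 7.07 FPKM with siRNA 28 and 2.05 FPKM with siRNA 30. In H2023 these were 4.04 and 3.13 FPKM, 3.57 FPKM and 0.492 FPKM. In H460 these were 6.30 and 5.79 FPKM, 2.97 FPKM and 0.759 FPKM. The average log2 fold change with siRNA 30 was -1.70 (SE 0.17), and it stayed past the threshold in the 20 alternatives that tested it. Under the filter of 5 FPKM it was too low to be tested. HNRNPA1L2 had an average of -0.71 (SE 0.18, adjusted p 0.0198). Their parent gene HNRNPA1, which was left out of the members, was at 367 and 361 FPKM in the A549 controls, 320.5 FPKM with siRNA 28 and 98.0 FPKM with siRNA 30, at 568 and 467 FPKM, 477 FPKM and 88.9 FPKM in H2023, and at 1410 and 1145 FPKM, 542 FPKM and 105 FPKM in H460. How much of the HNRNPA1L3 and HNRNPA1L2 values are reads of HNRNPA1 was not tested.

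The siRNAs were also set against each other across the lines. Of 41 members, 2 were higher with siRNA 28 than with siRNA 30, where 2.79% of all genes were, and 1 was lower, where 1.30% were. The higher ones were HNRNPA1L3 (log2 difference 1.40, SE 0.20, adjusted p 0.0033) and PTBP2 (0.68, SE 0.15, adjusted p 0.0250), and the lower one was HNRNPUL2-BSCL2 (-0.74, SE 0.16, adjusted p 0.0258). HNRNPUL2-BSCL2 was at 22.9 and 25.3 FPKM in the H2023 controls, 14.5 FPKM with siRNA 28 and 31.1 FPKM with siRNA 30, and at 7.07 and 7.01 FPKM, 5.33 FPKM and 7.78 FPKM in A549. At an unadjusted p under 0.05, 4 members were higher and 7 lower. HNRNPA3, for instance, had 248 and 251 FPKM in the H2023 controls, 238 FPKM with siRNA 28 and 415 FPKM with siRNA 30, but its difference did not pass the adjusted threshold. Leaving out single siRNA libraries kept 1 or 2 members higher and 0 or 1 lower, with PTBP2 lost without siRNA 28 or siRNA 30 of A549 or H2023 or siRNA 28 of H460, and HNRNPUL2-BSCL2 lost without either siRNA of H2023 or siRNA 28 of H460.

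**Figure D4:**
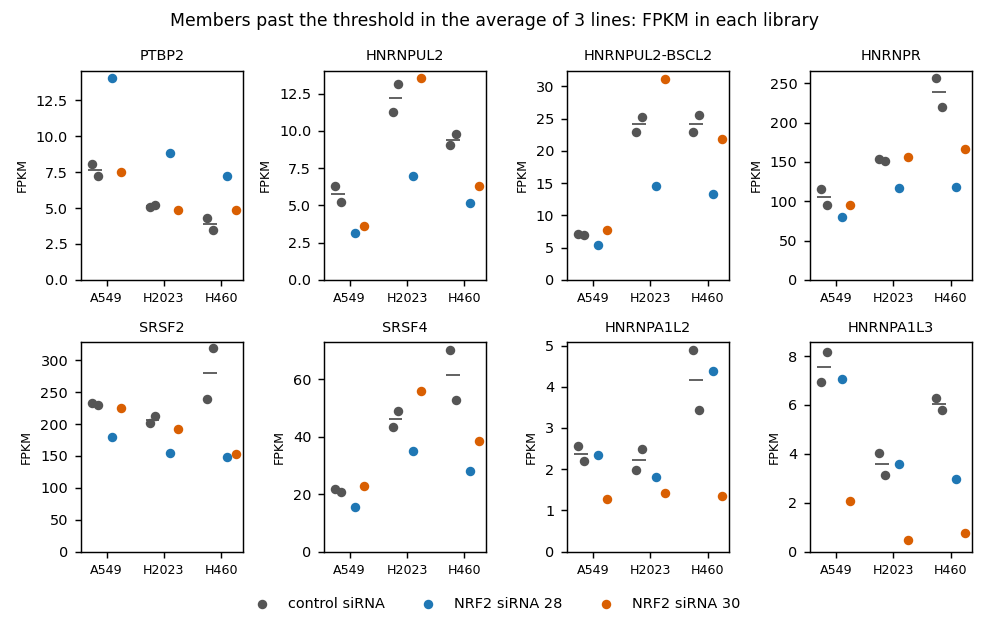
FPKM in each of the 12 libraries for 8 members past the threshold in an average over the 3 lines, on linear axes from 0 (grey, control siRNA with a bar at the mean; blue, siRNA 28; orange, siRNA 30). The blue points of PTBP2 lie above both controls in every line at 14.0, 8.83 and 7.23 FPKM, and the orange points of HNRNPA1L3 lie lowest at 2.05, 0.492 and 0.759 FPKM.

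Other genes of the splicing pathway were counted from lists that hold no members. These lists, too, were chosen with earlier results of these data known. In H460, 27 of 32 core snRNP and SF3 genes fell with siRNA 28 and 25 with siRNA 30, where 19.9% and 22.9% of all genes did, with medians of -0.70 and -0.87. SF3A3, a subunit of the U2 snRNP, was at 138 and 114 FPKM in the controls, 41.3 FPKM with siRNA 28 and 50.2 FPKM with siRNA 30, and SNRPB, a core Sm protein gene, was at 206 and 219 FPKM, 94.4 FPKM and 68.9 FPKM. Of 33 other splicing regulators, 16 fell and 1 rose with each siRNA, where 16.8% and 18.7% of all genes rose. Among those that fell was ELAVL1, which encodes the mRNA-stabilising protein HuR, at 61.4 and 68.8 FPKM in the controls, 22.6 FPKM with siRNA 28 and 20.5 FPKM with siRNA 30. In A549 ELAVL1 had 27.9 and 24.8 FPKM in the controls, 18.2 FPKM with siRNA 28 and 17.5 FPKM with siRNA 30. In H2023 these were 49.4 and 48.6 FPKM, 29.2 FPKM and 25.1 FPKM. The study had already listed ELAVL1 among genes lowered by NRF2 knockdown in each of these lines, so its fall was known beforehand. Of 15 factors of nonsense-mediated decay, 5 fell with each siRNA, against the same 19.9% and 22.9% of all genes, led by the exon junction complex genes MAGOH and MAGOHB.

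Of 11 kinases and phosphatases that set the phosphorylation of SR proteins, 2 fell and 1 rose with each siRNA in H460, which for those that fell is near the share of all genes (19.9% and 22.9%). SRPK1, the main cytoplasmic SR protein kinase, was at 65.0 and 54.9 FPKM in the controls, 22.6 FPKM with siRNA 28 and 17.2 FPKM with siRNA 30, and PPP1CC, a catalytic subunit of protein phosphatase 1, was at 135 and 118 FPKM, 59.5 FPKM and 36.7 FPKM. CLK2 rose with siRNA 28 and CLK4 with siRNA 30, both nuclear SR protein kinases. SRPK1 also fell in the averages over the lines in limma, with log2 fold changes of -0.86 for siRNA 28 and -0.90 for siRNA 30 (adjusted p 0.0194 and 0.0159). SRPK1, too, is among the genes that the study listed as lowered by NRF2 knockdown in each of these lines, so its fall was known beforehand. In A549 and H2023 the medians of the 4 lists lay between -0.22 and 0.07, as the plot of list medians shows. All 14 genes of the list of NRF2, the target of both siRNAs, and its canonical targets fell with each siRNA in each line in the same fits. With both siRNAs as a group, all 14 passed the threshold in A549 and in H460, and 12 in H2023.

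**Figure D5:**
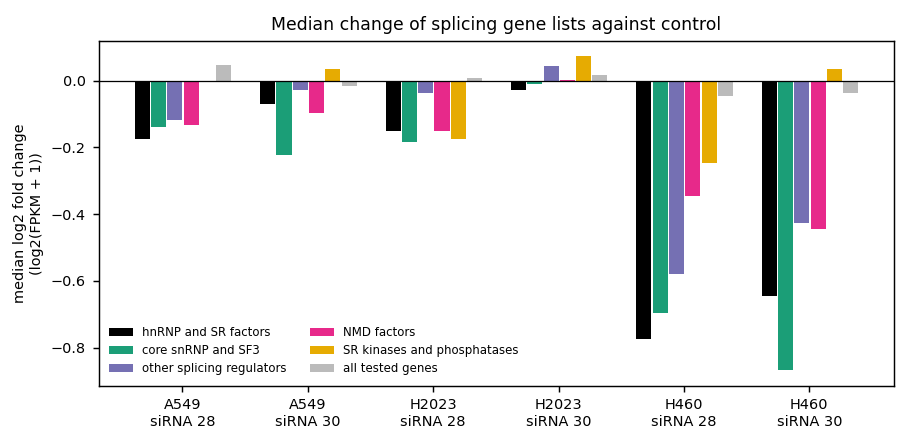
Median log2 fold change against control, on the log2(FPKM + 1) scale, of the 41 tested members, of 4 other lists of splicing-related genes and of all tested genes, for each siRNA in each line. In H460 the members stand at -0.77 and -0.64 and the core snRNP and SF3 genes at -0.70 and -0.87, while all tested genes stand at -0.05 and -0.04.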

How the data were processed

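Values were the authors' deposited FPKM per gene, 1 file per library. The study's methods name TopHat, hg19 and Cufflinks, whereas the submitters' processing notes list STAR 2.5.3a, Cuffnorm, HTSeq, DESeq2 and cutadapt 1.15 on hg19. FPKM correct for transcript length and library size, and split reads of similar genes by estimate. The authors' tables of their own comparisons were not used. Identifiers were matched to symbols without version (96.1% matched), gene positions come from GENCODE on GRCh37, and 12710 values under 1e-06 were set to 0. Tests were limma 3.58.1 (R 4.3.3) on log2(FPKM + 1) with a mean trend and Benjamini-Hochberg adjustment over all tested genes, two-sided, for genes at 1 FPKM or more in 2 libraries of every line, or of the line tested alone. Averages used line and siRNA as terms (7 residual degrees of freedom), single siRNAs used group means (3), a line alone its 4 libraries (2) and the F test 6 group means (6). Fold changes of low genes are understated. Scripts were tested on simulated data. The members and lists were chosen with earlier results of these data known. Named were members past the threshold (the 10 smallest p in an average, 6 in a line), the 3 highest and 3 lowest, and others as examples chosen after their values were seen. Other lists were named by smallest p. Figures used matplotlib 3.10.9.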

Additional observations from a re-analysis of the deposited data

Results flagged for a closer look

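Members past the F test between lines, and members whose libraries stood in opposite orders between lines, were looked at again. In the F test of the NRF2 siRNA effect over the lines, SRSF7 had an adjusted p of 0.0337 and HNRNPD of 0.0440. For 4 further members both NRF2 siRNA libraries lay above both controls in one line and below them in another, although the F test was not passed. That is 9.76% of the 41 tested members, no more than the 11.1% of all genes with such opposite orders. HNRNPM, an hnRNP that binds GU-rich RNA, lay higher in H2023 (0.26 on the log2 scale) and lower in A549 (-0.30) and H460 (-0.78), with an F test adjusted p of 0.101. SRSF10 lay higher in A549 (0.23) and H2023 (0.36) and lower in H460 (-0.47), with an adjusted p of 0.158. SRSF5 lay lower in H2023 (-0.28) and higher in A549 (0.11) and H460 (0.29), with an adjusted p of 0.267. PTBP3 lay higher in H2023 (0.14) and lower in H460 (-0.83), with an adjusted p of 0.131. The groups of 2 libraries did not allow a single library to be tested as standing apart.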

How the results depend on the processing

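With a pseudocount of 0.1 no count of called members moved by more than 1.5 times. Without a filter on low values, 2 members were lower with siRNA 28 and 1 with siRNA 30 in the averages, 0 were lower with siRNA 28 than with siRNA 30, 0 were lower with both siRNAs in H460, and 4 passed the F test between lines. With the stricter filter of 5 FPKM, 0 members were higher with siRNA 28 (PTBP2 was then not tested), 2 were lower with siRNA 30, 0 were higher with siRNA 28 than with siRNA 30, the H2023 median with siRNA 30 was 0.021, and 5 passed the F test. Median-ratio scaling gave 2 members lower with siRNA 28 than with siRNA 30, 5 lower with both siRNAs in H460, 6 in the contrast of H460 with the other lines, 1 in the F test, and H460 medians of -0.65 with siRNA 28 and -0.51 with siRNA 30. Leaving out mitochondrial transcripts gave 2 lower and 1 higher with siRNA 28 than with siRNA 30, 4 lower in H460, 3 in the contrast, 0 in the F test, H2023 medians of -0.11 with siRNA 28 and 0.11 with siRNA 30, and H460 medians of -0.62 and -0.38. Of all genes called with both siRNAs in H460, 49.1% were lower, against 28.9% with mitochondrial transcripts left out and 37.1% with median-ratio scaling; for siRNA 28 in H460 the shares were 54.2%, 39.8% and 44.5%, and for siRNA 30 they were 55.0%, 35.1% and 45.0%. With no mean trend, 6 members were lower in H460 and 1 passed the F test. A weight per cell line gave 2 lower with siRNA 28 than with siRNA 30, and 1 fit of all 12 libraries gave 24 lower in H460. With A549 left out, 1 member was lower with siRNA 28, 1 with siRNA 30, and 0 were lower or higher with siRNA 28 than with siRNA 30. The cause of these shifts was not tested.

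Same-numbered libraries were not taken as pairs, since their deviations correlated by 0.06 in A549, 0.29 in H2023 and 0.14 in H460, not over 0.1 in every line, and the number coincides with the siRNA. With the replicate block, 0 members were lower and 0 higher with siRNA 28, 1 was lower with siRNA 30, 0 were lower or higher with siRNA 28 than with siRNA 30, and the H2023 median with siRNA 30 was -0.0044, with every comparison holding fewer residual degrees of freedom.

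Leaving out 1 library at a time, members lower ranged from 0 to 10 with siRNA 28, from 1 to 4 with siRNA 30 and from 0 to 1 with siRNA 28 against siRNA 30, where 1 to 2 were higher. With both siRNAs, 0 to 1 members were lower in A549 (1 without its siRNA 28 library), 0 to 1 lower and 0 to 1 higher in H2023 (1 each without its siRNA 28 library) and 0 to 16 lower in H460. The contrast of H460 gave 0 to 12 and the F test 0 to 6. In the F test the count of 2 became 0 without any library of A549, either control of H2023 or H460 or the siRNA 30 library of H460, 1 without the siRNA 30 library of H2023, and 6 without the siRNA 28 library of H2023 or H460. The H2023 median with siRNA 30 lay between -0.029 and 0.019, the latter without its second control. Of 625 values of members called in the averages, in H460 with both siRNAs or between lines, taken over all these alternatives, 391 stayed past the threshold, 234 did not and 0 changed direction. Depth could not be weighed, since FPKM keeps no read total.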
